A study of Mus musculus with 6 samples.

Results

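The collagen genes of the mouse colon were examined by structural class in RNA sequencing data from 6 mice with dextran sulfate sodium (DSS) colitis. Members were all genes in the table of expected counts whose symbols name a collagen chain (Col, a number, a and a number), which gave 44 of 18477 genes. They comprised 11 fibrillar collagens, 6 basement membrane (type IV) collagens, 9 FACITs (fibril-associated collagens with interrupted triple helices) and 18 other collagens, the last holding the beaded filament, anchoring fibril, short-chain network, transmembrane and multiplexin families. The classes were assigned from known protein structure and not from the measured values.

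All mice were male C57BL/6 mice aged 6 to 8 weeks, and all received 2% (w/v) DSS in the drinking water from day 8 to day 14. DSS injures the colonic epithelium and causes an acute colitis. The DSS group (n = 3) was gavaged daily with PBS for 14 days, and the DSS+BV group (n = 3) was gavaged over the same period with *Bacteroides vulgatus*, a common commensal gut bacterium, suspended in sterile anaerobic PBS. Each library came from the colon of 1 mouse, and mice without DSS were not analysed here, so each difference compares 2 colitic groups. The comparison addressed whether gene expression in the inflamed colon differed with *B. vulgatus*. The libraries held between 15293276 and 17254343 expected counts. Correlations of log2 CPM between libraries lay between 0.929 and 0.975 within a group and between 0.879 and 0.967 across groups, and these ranges overlapped. DSS 2 correlated at 0.936 with DSS 1 and with DSS 3, and at 0.950, 0.963 and 0.955 with the DSS+BV libraries. DSS+BV 1 correlated at 0.967 with DSS 1, and at 0.960 and 0.929 with DSS+BV 2 and DSS+BV 3.

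Collagens are the main structural proteins of the extracellular matrix, and their chains share a repeat in which glycine occupies every Gly-X-Y triplet, so that each set of chains can wind into a triple helix. Fibrillar collagens have long unbroken helices that pack into banded fibrils in the lamina propria and submucosa. Type IV collagens have interrupted helices and join into the sheet-like network of basement membranes under epithelium and around vessels and muscle cells. FACITs sit on the surface of fibrils, and the remaining families form microfibrils, anchor the epithelium or span the cell membrane. In the intestine, fibroblasts and other mesenchymal cells are the main source of fibrillar collagens, and collagen is made and degraded during wound repair.

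The reference gene models showed this structural division. The longest run of glycine codons placed at every Gly-X-Y triplet, counted in the coding sequence of each member in GENCODE M21, was 216 to 344 triplets in the fibrillar class (median 338). It was 39 to 66 triplets in the basement membrane class, 32 to 113 in the FACITs and 23 to 87 in the other collagens. *Col3a1* had a run of 344 triplets and *Col4a1* a run of 40.

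Some of the members that the results turn on lie beside each other in the genome. *Col4a1* (chr8:11198423-11312826, minus strand, 52 exons, GRCm38) and *Col4a2* (chr8:11312805-11449287, plus strand, 48 exons) start head to head and their gene models overlap by 22 bases. The stretch of the plus strand that holds both starts (chr8:11312801-11312830, GRCm38.p6, RefSeq) is printed 5′ to 3′ because it lies between the called member, *Col4a2*, and its partner. The capitals mark the 22 bases from the *Col4a2* start to the *Col4a1* start.
Col4a1 and Col4a2 starts: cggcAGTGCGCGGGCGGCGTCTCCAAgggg

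*Col4a6* (chrX:141165403-141474076, minus strand) and *Col4a5* (chrX:141475385-141689234, plus strand) are also arranged head to head, with 1308 bases between the gene models, and both had positive fold changes. *Col3a1* (chr1:45311538-45349706, plus strand, 51 exons) was the most abundant member and lies 24.6 kb from *Col5a2* (chr1:45374321-45503282, minus strand), which converges on it. The 250 bases before the RefSeq start of these 3 genes are printed 5′ to 3′ on the strand of the gene, to set the most abundant member beside the type IV pair that differed in direction from *Col4a1* and *Col4a2*. They are chr1:45311288-45311537 for *Col3a1*, chrX:141475169-141475418 for *Col4a5* and chrX:141474077-141474326 for *Col4a6*, all in GRCm38.p6. The capitals mark matches on either strand to the TATA box (TATAAA), the CCAAT box or the GC box (GGGCGG).
Col3a1: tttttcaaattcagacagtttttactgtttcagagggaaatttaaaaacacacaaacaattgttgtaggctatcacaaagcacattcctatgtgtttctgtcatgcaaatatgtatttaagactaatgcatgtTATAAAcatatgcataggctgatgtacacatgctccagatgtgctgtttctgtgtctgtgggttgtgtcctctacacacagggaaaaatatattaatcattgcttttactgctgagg
Col4a5: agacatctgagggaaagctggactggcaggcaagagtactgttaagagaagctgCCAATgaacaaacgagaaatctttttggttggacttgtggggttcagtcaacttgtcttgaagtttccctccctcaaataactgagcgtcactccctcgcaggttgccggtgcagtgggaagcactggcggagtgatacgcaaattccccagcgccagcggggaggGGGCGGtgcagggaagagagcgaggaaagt
Col4a6: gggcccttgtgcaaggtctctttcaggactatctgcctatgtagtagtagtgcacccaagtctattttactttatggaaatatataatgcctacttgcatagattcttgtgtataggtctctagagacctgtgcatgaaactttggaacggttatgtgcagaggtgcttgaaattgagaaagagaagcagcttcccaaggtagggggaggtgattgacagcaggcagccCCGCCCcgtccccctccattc

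*Col3a1* held 1 TATAAA, 117 bases before its start. *Col4a5* held a CCAAT at 196 bases and a GC box at 30 bases before its start, and *Col4a6* held a GC box on the opposite strand (CCGCCC) at 21 bases. RefSeq promoter windows, from 250 bases before to 50 bases after a start, were found for 35 of the 44 members (38 windows). The GC box was in 60.5% of these windows and in 35.7% of all 32851 windows. CCAAT was in 34.2% of the collagen windows against 37.4% of all windows, and TATAAA in 13.2% against 13.6%. These matches are a description of the letters and do not show binding.

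Collagen transcripts took a smaller part of the colon RNA in the DSS+BV group. They made up 0.650%, 0.568% and 0.575% of all expected counts in the DSS libraries (here and throughout in the order 1, 2, 3), against 0.293%, 0.206% and 0.235% in the DSS+BV libraries. The summed level was 5850 ± 374 CPM with DSS alone and 2499 ± 423 CPM with DSS+BV (counts scaled by the TMM-adjusted library size, mean ± SD, n = 3 each), which is 2.34-fold lower, and the groups did not overlap. *Col3a1* alone gave 34.5%, 34.9% and 26.0% of the collagen CPM in the DSS libraries and 22.9%, 21.7% and 20.1% in the DSS+BV libraries. With *Col3a1* left out, the sum was 2.04-fold lower in the DSS+BV group. In tissue RNA, fewer cells of a type and less RNA per cell cannot be told apart.

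Of the 44 members, 36 passed the filter on low counts, and 1 was called at an edgeR adjusted p-value under 0.05 with an absolute log2 fold change over 1. This was *Col4a2*, which was lower in the DSS+BV group, and it is 2.78% of the tested members. Among all 14579 tested genes, 0.0892% were called lower and 0% higher. The log2 fold change (DSS+BV against DSS) was below 0 for 31 tested members (86.1%) and above 0 for 5, against 51.5% below 0 among all tested genes. The median over the tested members was −0.78, and the median over all tested genes was −0.01. At an unadjusted edgeR p-value under 0.05, 19 members were lower (52.8%, against 9.12% of all tested genes) and 1 was higher (against 3.40%). Each DSS+BV library was below each DSS library for 16 tested members (44.4%, against 11.3% of all tested genes), and the reverse held for 1, *Col4a6* (against 6.37%). DESeq2 at the same thresholds called 9 of the 36 members lower (25.0%, against 1.78% of its tested genes) and 0 higher (against 0.291%). These 9 were *Col1a1*, *Col3a1*, *Col5a1*, *Col5a2*, *Col5a3*, *Col4a1*, *Col4a2*, *Col16a1* and *Col18a1*. The edgeR count was 0 with any 1 library left out and 12 without both DSS 2 and DSS+BV 1. That pair was chosen after the data were seen, and the share of all genes called without it is not given here.

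**Figure D1:**
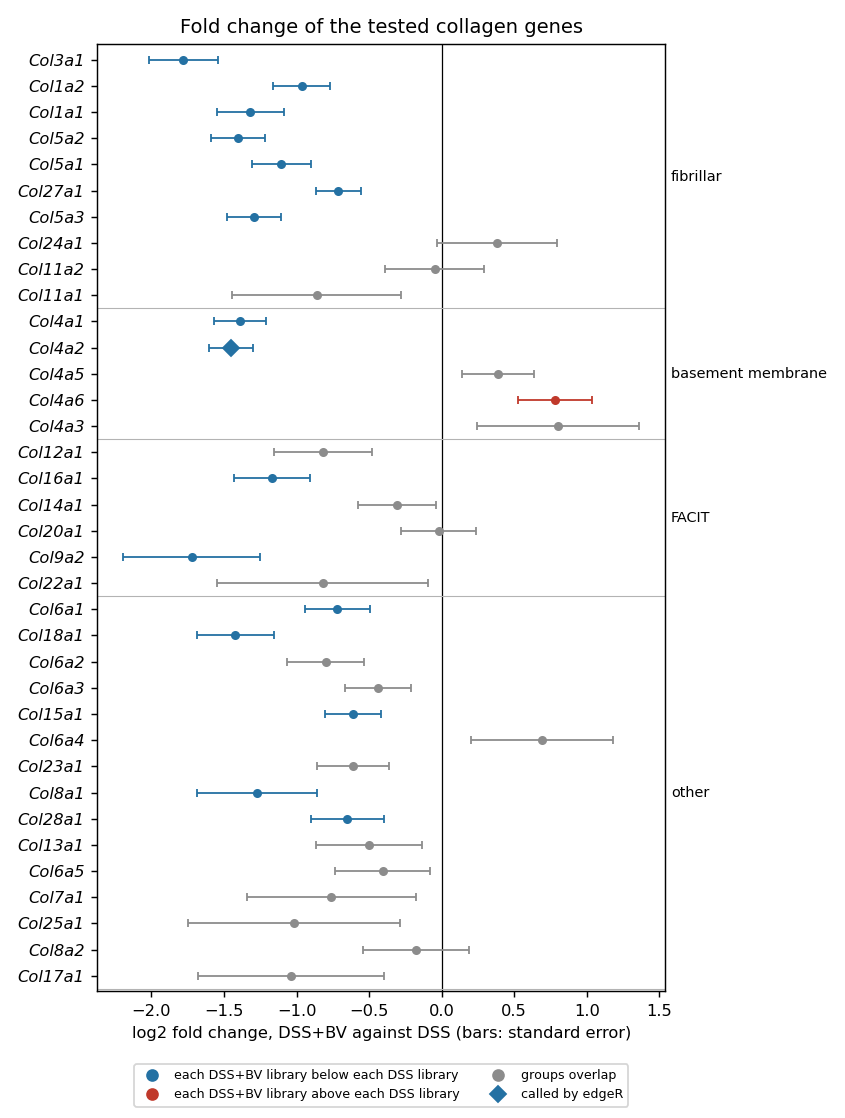
Log2 fold change of each of the 36 tested collagen genes (x axis, DSS+BV against DSS), with bars for the standard error of the edgeR fit, grouped by class and ordered by mean level. The 16 blue genes had each DSS+BV library below each DSS library, the diamond is *Col4a2* at −1.45, and *Col4a6* in red had the opposite order.

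The 8 members that were not tested had between 0 and 14 expected counts in every library. They were *Col2a1* of cartilage, *Col9a1* and *Col9a3*, *Col10a1*, *Col19a1*, *Col26a1*, *Col6a6* and the type IV chain *Col4a4*. All 12 members with a mean over 100 CPM in the DSS group had a log2 fold change below 0, and for 9 of them the groups did not overlap. A cut on the DSS mean favours members that are lower in DSS+BV, so these counts are not set against all genes. *Col5a1*, *Col5a2* and *Col12a1* passed it only through the DSS group, with means of 164, 207 and 115 CPM. Their means with DSS+BV were 76.2, 78.3 and 65.4 CPM. Of the 14 tested members with a DSS mean under 10 CPM, the DSS+BV libraries were all below the DSS libraries for 2. Among all tested genes, with no cut on level, 11.3% had this order. Among the 36 tested members, the highest library of the DSS+BV group was DSS+BV 1 for 26, DSS+BV 3 for 10 and DSS+BV 2 for 0, and the highest library of the DSS group was DSS 3 for 22.

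**Figure D2:**
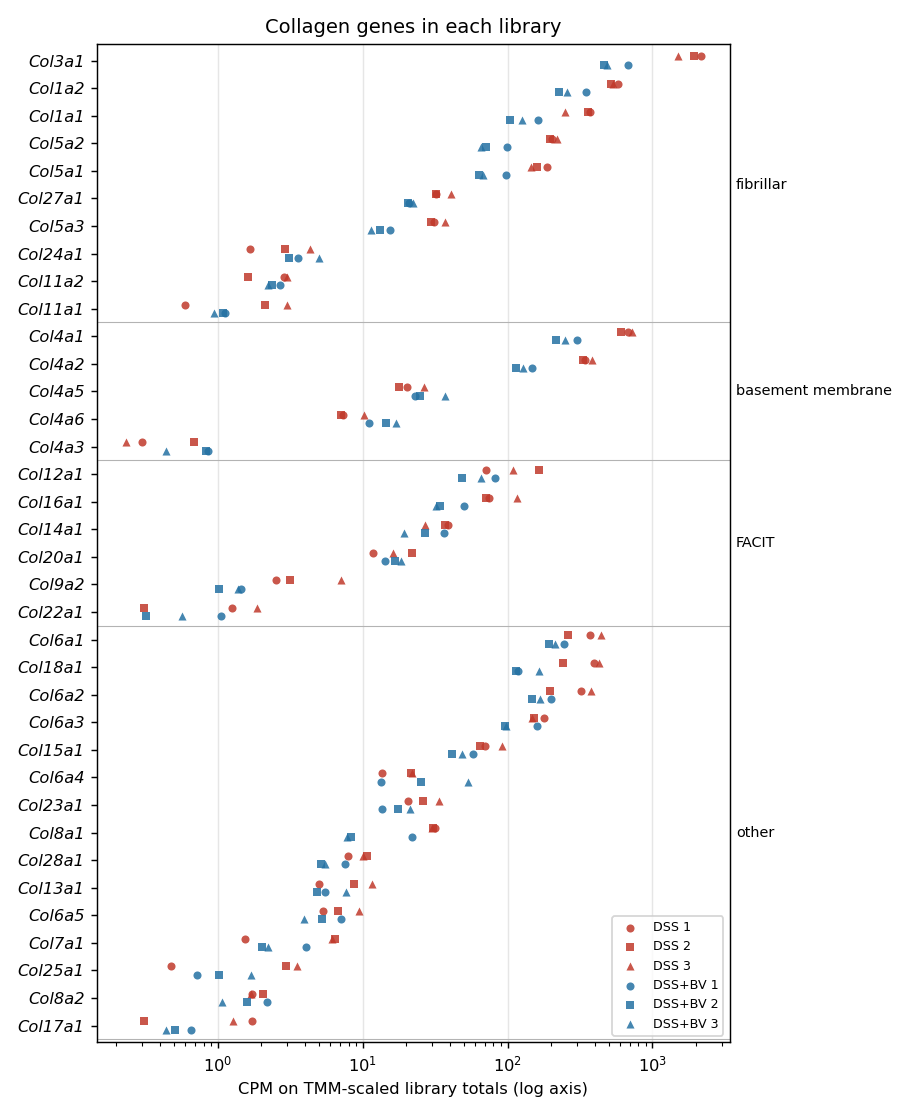
Level of each of the 36 tested collagen genes in each of the 6 libraries (x axis, CPM on TMM-scaled totals, log scale), grouped by class, with DSS in red and DSS+BV in blue and 1 marker shape for each library number. The abundant members at the top of the fibrillar and basement membrane classes show red and blue points that do not overlap, while members near 1 CPM overlap.

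The fibrillar collagens were lower in sum and in most members. Their summed level was 3178 ± 420 CPM with DSS alone, against 1147 ± 249 CPM with DSS+BV (SD, n = 3 each), a 2.77-fold difference. Of the 10 tested, 9 had a log2 fold change below 0 and 1 above 0, with a median of −1.04. None passed the edgeR thresholds. Each DSS+BV library was below each DSS library for 7 (against 11.3% of all tested genes), and DESeq2 called 5 lower (against 1.78%). *Col3a1*, the chain of type III collagen found in distensible tissues such as gut and vessel walls, was at 2161, 1924 and 1500 CPM in the DSS libraries, against 679, 462 and 484 CPM in the DSS+BV libraries. Each DSS+BV library lay below each DSS library, and the log2 fold change was −1.78 ± 0.24 (SE, edgeR adjusted p = 0.0833, DESeq2 adjusted p = 7.85e-10).

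Type I collagen, the main fibril of connective tissue, is built from *Col1a1* and *Col1a2* chains. *Col1a1* was at 373, 358 and 250 CPM in the DSS libraries, against 162, 105 and 126 CPM in the DSS+BV libraries, a log2 fold change of −1.32 ± 0.23 (SE, edgeR adjusted p = 0.165, DESeq2 adjusted p = 0.000159). *Col1a2* was at 580, 516 and 532 CPM and at 350, 226 and 258 CPM in the same order, a log2 fold change of −0.97 ± 0.20 (SE, edgeR adjusted p = 0.201, DESeq2 adjusted p = 0.00206). Neither gene overlapped between the groups.

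Type V collagen sits inside type I fibrils and limits their width, and its chains had log2 fold changes from −1.40 to −1.11. *Col5a2* was at 204, 197 and 220 CPM in the DSS libraries, against 99.0, 70.7 and 65.3 CPM in the DSS+BV libraries (log2 fold change −1.40 ± 0.19 SE, edgeR adjusted p = 0.0833, DESeq2 adjusted p = 1.51e-07). *Col5a1* was at 188, 159 and 146 CPM against 97.3, 64.0 and 67.4 CPM (log2 fold change −1.11 ± 0.20 SE, edgeR adjusted p = 0.173). *Col5a3* was at 31.3, 29.8 and 37.3 CPM against 15.5, 13.3 and 11.4 CPM (log2 fold change −1.29 ± 0.18 SE, edgeR adjusted p = 0.0969). The groups did not overlap for any of these 3 chains. *Col27a1*, a fibrillar chain best known from cartilage, also did not overlap, with a log2 fold change of −0.71 (edgeR adjusted p = 0.222). *Col11a1*, *Col11a2* and *Col24a1* stayed under 5 CPM in every library and overlapped, and *Col24a1* was the 1 tested fibrillar member above 0, at 0.38.

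The basement membrane class was lower in sum but divided by chain. The summed level was 1055 ± 87.6 CPM with DSS alone, against 428 ± 57.3 CPM with DSS+BV (SD, n = 3 each), a 2.46-fold difference carried by *Col4a1* and *Col4a2*, the chains of the network found in nearly all basement membranes. *Col4a1* was at 682, 607 and 722 CPM in the DSS libraries, against 302, 216 and 248 CPM in the DSS+BV libraries (log2 fold change −1.39 ± 0.18 SE, edgeR adjusted p = 0.0833, DESeq2 adjusted p = 1.41e-09). *Col4a2* was at 344, 334 and 383 CPM and at 147, 114 and 127 CPM in the same order, and it fell by 1.45 ± 0.15 on the log2 scale (SE, edgeR adjusted p = 0.0424, DESeq2 adjusted p = 4.56e-14). Both genes had DSS+BV libraries far below the DSS libraries, and *Col4a2* ranked 13 among all tested genes by p-value. The call for *Col4a2* was lost when any 1 library was left out, with edgeR adjusted p-values from 0.0748 to 0.384.

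The other type IV chains belong to the more specialised networks, and the 3 that were tested had positive fold changes. *Col4a6*, which pairs with *Col4a5* around smooth muscle and under some epithelia, was at 7.36, 7.09 and 10.2 CPM in the DSS libraries, against 11.1, 14.4 and 16.9 CPM in the DSS+BV libraries. The groups did not overlap, but the log2 fold change of 0.78 ± 0.25 (SE) did not pass the test (edgeR adjusted p = 0.341, DESeq2 adjusted p = 0.115). *Col4a5* was at 20.3, 18.0 and 26.6 CPM against 23.0, 24.8 and 37.0 CPM, which overlapped (log2 fold change 0.39 ± 0.25 SE, edgeR adjusted p = 0.554). *Col4a3* stayed under 1 CPM in every library, at a log2 fold change of 0.80 (edgeR adjusted p = 0.588). Together *Col4a3* to *Col4a6* made up 2.69%, 2.73% and 3.30% of the type IV CPM in the DSS libraries and 7.31%, 10.9% and 12.7% in the DSS+BV libraries. The total under this share is mostly *Col4a1* and *Col4a2*, which were lower with DSS+BV. The untested *Col4a4*, also in the sum, had a mean of 0.581 CPM with DSS alone and 0.344 CPM with DSS+BV. Because 3 of the 5 tested chains were above 0, the class median was 0.39 while its sum was lower.

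**Figure D3:**
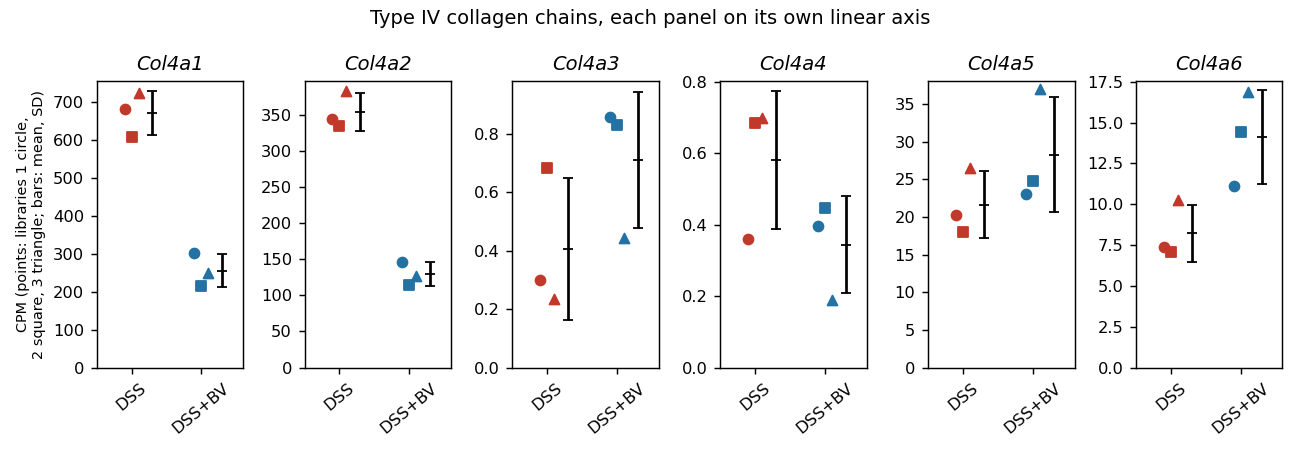
CPM of the 6 type IV collagen genes in each library (points, with bars for the mean and SD of the 3 libraries of a group), each panel on its own linear axis from 0. *Col4a1* and *Col4a2* separate downwards in DSS+BV, *Col4a6* separates upwards and *Col4a5* overlaps. *Col4a3* and *Col4a4* stay under 1 CPM.

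The FACITs had a summed level of 260 ± 51.9 CPM with DSS alone, against 151 ± 31.0 CPM with DSS+BV (SD, n = 3 each), a 1.72-fold difference. All 6 tested members had a log2 fold change below 0 (median −0.82), with *Col20a1* at −0.02 and turning positive under some settings. The groups did not overlap for 2, *Col16a1* and *Col9a2*, both lower in DSS+BV (against 11.3% of all tested genes). *Col16a1* was at 74.7, 71.4 and 116 CPM in the DSS libraries, against 49.9, 34.3 and 32.3 CPM in the DSS+BV libraries (log2 fold change −1.17 ± 0.26 SE, edgeR adjusted p = 0.235, DESeq2 adjusted p = 0.00909). *Col12a1*, a FACIT of tissues under mechanical load, was at 71.6, 166 and 108 CPM against 82.1, 48.2 and 66.0 CPM. It overlapped because DSS 1 lay below DSS+BV 1 (log2 fold change −0.82 ± 0.34 SE, edgeR adjusted p = 0.396, and −0.45 without DSS 2, its highest library). *Col14a1* was at 38.6, 36.9 and 26.9 CPM against 36.5, 27.0 and 19.2 CPM and overlapped (log2 fold change −0.31 ± 0.27 SE, edgeR adjusted p = 0.663). *Col9a2* stayed under 8 CPM, with a log2 fold change of −1.72 ± 0.47 (SE, edgeR adjusted p = 0.305).

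The other collagens summed to 1358 ± 302 CPM with DSS alone, against 773 ± 99.4 CPM with DSS+BV (SD, n = 3 each), a 1.76-fold difference. Of 15 tested members, 14 had a log2 fold change below 0 (median −0.65). The groups did not overlap for 5, all lower in DSS+BV (against 11.3% of all tested genes). Type VI collagen forms beaded microfibrils near the cell surface, and its tested chains had log2 fold changes from −0.80 to 0.69. *Col6a1* was at 370, 259 and 442 CPM in the DSS libraries, against 245, 193 and 212 CPM in the DSS+BV libraries, without overlap (log2 fold change −0.72 ± 0.22 SE, edgeR adjusted p = 0.329). *Col6a2* was at 324, 195 and 379 CPM against 201, 147 and 168 CPM and overlapped (log2 fold change −0.80 ± 0.27 SE, edgeR adjusted p = 0.346). *Col6a3* had a log2 fold change of −0.44, and *Col6a4* was the 1 tested member of the class above 0, at 0.69, with 53.4 CPM in DSS+BV 3 against 13.5 to 25.4 CPM in the other libraries of both groups. Without DSS+BV 3 the log2 fold change of *Col6a4* was 0.03.

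The multiplexins, which join basement membranes to the matrix beneath and can release fragments such as endostatin, did not overlap between the groups. *Col18a1* was at 396, 241 and 428 CPM in the DSS libraries, against 119, 114 and 164 CPM in the DSS+BV libraries (log2 fold change −1.42 ± 0.27 SE, edgeR adjusted p = 0.180, DESeq2 adjusted p = 0.000335). *Col15a1* had a log2 fold change of −0.61 (edgeR adjusted p = 0.334). *Col8a1*, a short-chain collagen of vessel walls, was at 31.4, 30.5 and 30.3 CPM against 22.0, 8.35 and 7.84 CPM, so that DSS+BV 1 stood between the other DSS+BV libraries and the DSS libraries (log2 fold change −1.27 ± 0.41 SE, edgeR adjusted p = 0.340). Its partner *Col8a2* was at 1.74, 2.05 and 1.69 CPM against 2.18, 1.59 and 1.07 CPM and overlapped (log2 fold change −0.18 ± 0.36 SE, edgeR adjusted p = 0.867, with a positive value when DSS+BV 3 was left out). The transmembrane collagens *Col13a1*, *Col17a1*, *Col23a1* and *Col25a1* and the anchoring fibril gene *Col7a1* all overlapped, with log2 fold changes from −1.04 for *Col17a1* to −0.50 for *Col13a1*. *Col28a1* did not overlap (−0.65), and *Col6a5* did (−0.41).

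The class shares were taken within the collagen counts of each library, which need no scaling between libraries. The fibrillar class took 57.1%, 58.4% and 47.4% of the collagen counts in the DSS libraries and 48.3%, 45.4% and 43.4% in the DSS+BV libraries, which overlapped. The basement membrane share was 16.9%, 17.5% and 19.8% against 16.4%, 17.4% and 17.9%, and it overlapped as well. The FACIT share was 3.21%, 5.44% and 4.80% against 6.29%, 6.01% and 5.76%, and each DSS+BV library was above each DSS library. The share of the other collagens was 22.8%, 18.6% and 28.0% against 29.0%, 31.2% and 33.0%, again without overlap. With *Col3a1* left out, the fibrillar part of the remaining collagen CPM was 33.2 ± 3.78% with DSS alone and 30.8 ± 1.99% with DSS+BV (SD, n = 3 each). The FACIT and other parts of this remainder overlapped between the groups. FACITs held 300 of 3594 CPM in DSS 2 and 139 of 1923 CPM in DSS+BV 3. The other collagens held 1620 of 4277 CPM in DSS 3 and 859 of 2281 CPM in DSS+BV 1. Both classes were lower in summed CPM with DSS+BV, by 1.72-fold and 1.76-fold.

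**Figure D4:**
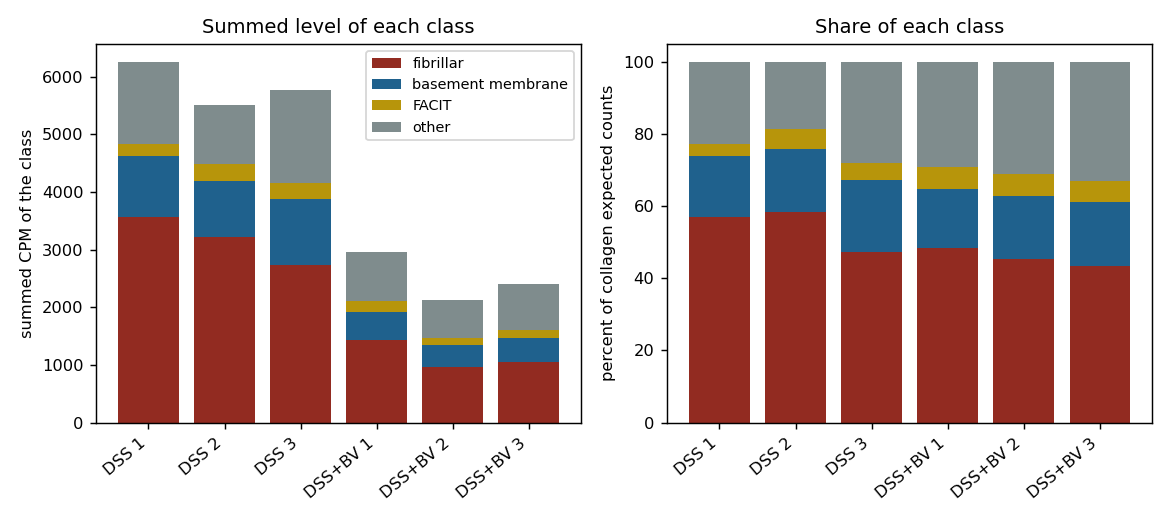
Summed CPM of the 4 collagen classes in each library (left) and the percent of collagen expected counts in each class (right), as stacked bars from 0. The stacks of the DSS+BV libraries reach 2129 to 2960 CPM against 5518 to 6256 CPM in DSS, while the fibrillar share overlaps between the groups.

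Levels of different genes were compared per kilobase of transcript. In the DSS group *Col3a1* was first, at 335 ± 60.1 CPM per kb (SD, n = 3), followed by *Col1a2* at 101 ± 6.23, *Col4a1* at 101 ± 8.83, *Col6a1* at 87.1 ± 22.5, *Col6a2* at 75.8 ± 24.0, *Col18a1* at 63.5 ± 17.9, *Col1a1* at 55.1 ± 11.3 and *Col4a2* at 54.9 ± 4.01. From *Col1a2* to *Col4a2*, each gene differed from the next in this order by less than the larger of their SDs. In the DSS+BV group *Col3a1* was first again, at 97.4 ± 21.5 CPM per kb, with *Col6a1* at 52.9 ± 6.44 and *Col1a2* at 51.9 ± 12.0 next, then *Col6a2* at 43.5 ± 6.90 and *Col4a1* at 38.6 ± 6.61. From *Col6a1* to *Col4a1* in this order, each gene again differed from the next by less than the larger SD. *Col4a1* ranked 3 with DSS alone and 5 with DSS+BV.

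Chains that assemble in 1 molecule, or that are often read together, were compared as ratios within a library. In this design of 3 against 3, the smallest two-sided p-value of the exact permutation test is 0.1, so none of the 8 ratios could pass 0.05. *Col4a1* was 1.82 to 2.06 times *Col4a2* in every library, and the log2 ratio differed by 0.06 between the groups (exact p = 0.4, adjusted over the 8 ratios 0.533). *Col6a1* to *Col6a2* had a ratio of 1.14 to 1.33 and a log2 difference of 0.06 (exact p = 0.5, adjusted 0.571). The log2 ratio of *Col1a1* to *Col1a2* differed by −0.33 (exact p = 0.2, adjusted 0.32), and that of *Col5a1* to *Col5a2* by 0.30 (exact p = 0.2, adjusted 0.32). The groups did not overlap for 3 ratios. These were *Col3a1* to *Col1a1* (difference −0.47), *Col8a1* to *Col8a2* (−1.22) and *Col4a5* to *Col4a1* (1.78), each at the smallest exact p of 0.1 (adjusted 0.267). *Col4a1* to *Col1a1*, which sets the basement membrane beside the main fibril, differed by −0.08 (exact p = 1, adjusted 1), with a positive value when DSS 3 was left out.

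Other genes of the collagen pathway were mostly below 0 as well. Of 87 tested genes in 6 lists, 78 had a log2 fold change below 0 and 9 above 0, where 51.5% of all tested genes were below 0. The edgeR test called 4 lower and 0 higher (against 0.0892% and 0% of all tested genes), and DESeq2 called 16 lower (against 1.78%). With 1 library left out, edgeR called 0 to 1 lower. All 4 called genes belonged to the list of collagen degradation, in which 13 of 13 genes were below 0 (median −1.18).

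Degradation is carried out by matrix metalloproteinases (MMPs), which are held back by the TIMP inhibitors. *Timp1*, an inhibitor, was at 33.9, 35.9 and 43.6 CPM in the DSS libraries, against 7.39, 7.96 and 6.70 CPM in the DSS+BV libraries, and fell by 2.36 ± 0.18 on the log2 scale (SE, edgeR adjusted p = 0.0179). The collagenase *Mmp13*, which cuts fibrillar collagen, was at 69.8, 130 and 130 CPM against 8.90, 8.66 and 13.7 CPM and fell by 3.40 ± 0.33 (SE, edgeR adjusted p = 0.0293). The gelatinase *Mmp9* was at 11.4, 13.2 and 12.4 CPM against 1.91, 1.72 and 1.77 CPM and fell by 2.77 ± 0.22 (SE, edgeR adjusted p = 0.0179). The neutrophil collagenase *Mmp8* was at 10.4, 8.58 and 9.84 CPM against 0.660, 0.319 and 0.443 CPM and fell by 4.32 ± 0.34 (SE, edgeR adjusted p = 0.0179). None of these 4 genes overlapped between the groups, and *Mmp8* is also in the list of neutrophil markers.

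In the list of hydroxylation, folding and secretion, 16 of 18 tested genes were below 0 (median −0.61). The smallest p-values belonged to the prolyl 3-hydroxylase family members *P3h3* (log2 fold change −1.22, edgeR adjusted p = 0.123) and *P3h1* (−1.17, edgeR adjusted p = 0.245) and the collagen chaperone *Fkbp10* (−1.18, edgeR adjusted p = 0.161). In procollagen processing and crosslinking, 13 of 14 tested genes were below 0 (median −0.88). *Lox*, which crosslinks collagen through lysine residues, was at 39.1, 76.9 and 50.4 CPM in the DSS libraries, against 18.9, 12.1 and 13.9 CPM in the DSS+BV libraries (log2 fold change −1.89 ± 0.30 SE, edgeR adjusted p = 0.135, DESeq2 adjusted p = 6.62e-06). Its relative *Loxl2* had a log2 fold change of −0.94 and *Bmp1*, the procollagen C-proteinase, of −0.81. None of these genes passed the edgeR thresholds.

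Among collagen receptors, 6 of 9 tested genes were below 0 (median −0.36), with the endocytic receptor *Mrc2* at −0.79, the discoidin receptor *Ddr2* at −0.60 and the integrin subunit *Itgb1* at −0.36. The partners of the basement membrane were below 0 in 13 of 15 genes (median −0.64), with the linker proteins *Nid2* at −0.82 and *Nid1* at −0.65 and the laminin chain *Lama1* at −1.29. Partners of the collagen fibril were below 0 in 17 of 18 tested genes (median −0.83). Among them *Tnc* (tenascin C, a matrix glycoprotein of wounds) was at 303, 406 and 379 CPM in the DSS libraries, against 149, 109 and 143 CPM in the DSS+BV libraries (log2 fold change −1.44 ± 0.19 SE, edgeR adjusted p = 0.0833). *Sparc*, a collagen-binding matrix protein, had a log2 fold change of −0.97 and *Fbln2* of −1.05. In these 3 lists 0 genes were called by edgeR, and DESeq2 called 0, 1 and 3 lower (against 1.78% of its tested genes).

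**Figure D5:**
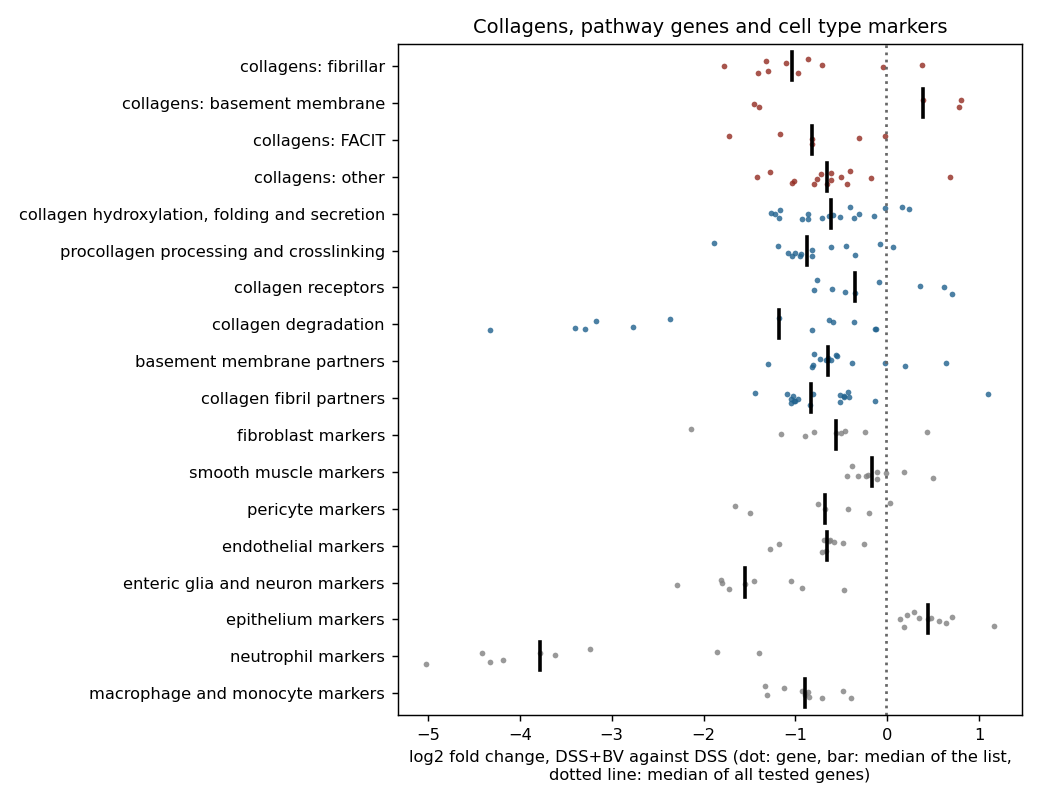
Log2 fold change (x axis, DSS+BV against DSS) of each tested gene in the 4 collagen classes (red), 6 lists of collagen pathway genes (blue) and 8 lists of cell type markers (grey). Black bars are list medians and the dotted line is the median of all tested genes, −0.01. The basement membrane class is at 0.39, the other collagen and pathway medians lie between −1.18 and −0.36 and the epithelial markers are at 0.45.

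Markers of cell types moved with the groups to different degrees. Fibroblast markers were below 0 in 8 of 9 genes (median −0.56), with a summed level of 554 to 812 CPM with DSS alone against 499 to 705 CPM with DSS+BV, which overlapped. *Dpep1* alone ranged from 31.4 to 322 CPM and from 90.4 to 347 CPM, and without it the fibroblast sum was 490 to 691 CPM against 333 to 506 CPM, still with overlap. Smooth muscle markers were below 0 in 8 of 10 genes (median −0.16), at 3649 to 4570 CPM against 2751 to 4344 CPM, which overlapped. Pericyte markers were below 0 in 6 of 7 genes (median −0.68), at 449 to 830 CPM against 342 to 407 CPM. Endothelial markers were below 0 in 10 of 10 genes (median −0.65), at 515 to 705 CPM against 350 to 450 CPM. Neither the pericyte nor the endothelial sum overlapped.

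Epithelial markers were above 0 in 11 of 11 genes (median 0.45), at 12611 to 14654 CPM with DSS alone against 16038 to 21227 CPM with DSS+BV. Enteric glia and neuron markers were below 0 in 9 of 9 genes (median −1.55), at 62.9 to 239 CPM against 46.5 to 49.4 CPM. Neutrophil markers were below 0 in 9 of 9 tested genes (median −3.78), 5 of which were called lower by edgeR (against 0.0892% of all tested genes). Their sum was 204 to 1049 CPM with DSS alone against 30.4 to 327 CPM with DSS+BV, and it overlapped through *Ly6g*, which ranged from 76.1 to 854 CPM and from 19.1 to 303 CPM. Without *Ly6g* the neutrophil sum was 128 to 195 CPM against 11.3 to 23.9 CPM, with no overlap. Macrophage and monocyte markers were below 0 in 11 of 11 genes (median −0.89), at 905 to 2096 CPM against 573 to 1450 CPM. The epithelial and glial sums did not overlap between the groups, and the macrophage sum did. Of the 77 marker genes, 0 were at 0 in every library and 2 were at 0 in at least 1, so markers of all 8 cell types were detected. Their part in the collagen levels was not tested.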

How the data were processed

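Total RNA from the colon of 6 mice (3 DSS, 3 DSS+BV) was made into libraries with a SMARTER mRNA-Seq kit and sequenced on a DNBSEQ platform. The authors quantified genes with RSEM and deposited expected counts per gene, not scaled between libraries. The submitters' processing notes name HISAT2 2.1.0, Bowtie2 2.2.5, RSEM 1.2.8 and GRCm38.p6. The annotation release is not given in the sources used here. All counts of the 44 collagen genes were whole numbers in the deposited table. Whether reads were counted by strand is not given in the sources used here, so reads in the 22 bases shared by *Col4a1* and *Col4a2* cannot be assigned with certainty.

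Expected counts were rounded, genes were kept with filterByExpr (minimum count 10, minimum total 15), and 14579 genes were tested in R 4.3.3 by edgeR 4.0.16 (quasi-likelihood, TMM factors, Benjamini-Hochberg adjustment). A call needed an adjusted p-value below 0.05 with a log2 fold change beyond 1 in either direction, as in the study, which used DESeq2. The standard error was taken from the fold change and its F statistic. CPM values used TMM-scaled totals, and values per kb used GENCODE M21 transcript lengths. The biological coefficient of variation was 32.1%. Pairs of libraries within a group differed by more than counting noise (chi-square per degree of freedom 44.7 to 122.7), so none was a duplicate. The settings also tried were DESeq2 1.42.0, scaling by RLE or by the upper quartile, 2 other low-count filters, a robust fit, adjusted p alone, the replicate number as a block, each library left out, and class shares per coding length. Leaving out DSS 2 and DSS+BV 1 together was chosen after seeing the data. The test was also run on counts simulated from the fitted means and dispersions of these data.

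The collagen members, the pathway and marker lists and the tests were chosen with earlier results of these data known. Values in every library are given for the 3 most abundant members of each class, every called member, in each direction the 5 non-overlapping members of smallest p, and both chains of each tested pair. From the pathway lists, called genes and up to 3 genes per list with the smallest p-values are named. *Col6a4*, *Dpep1* and *Ly6g*, and the marker sums without the last 2, were singled out after their values were seen. Figures were drawn with matplotlib 3.10.9.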

Additional observations from a re-analysis of the deposited data

How the results depend on the processing

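The number of collagen genes called lower was 1 with edgeR, also with adjusted p alone, a robust fit, no filter beyond 1 count, or scaling by RLE or the upper quartile. It was 9 with DESeq2, 0 with a filter of at least 1 CPM in 3 libraries (adjusted p of *Col4a2* 0.0521) and 0 with the replicate number as a block (adjusted p 0.196). It was 0 with any 1 library left out, and 12 without both DSS 2 and DSS+BV 1. That pair was chosen after the data were seen, and the share of all genes called without it is not given here. The number of collagen genes called higher was 0 in each of these settings. For the other pathway genes, the number called lower was 4, and it was 16 with DESeq2, 0 with the replicate block, 0 to 1 with 1 library left out and 16 without both DSS 2 and DSS+BV 1, where 1 was called higher. Nothing in the labels says that the replicate number pairs mice. Deviations of same-numbered libraries from their group means correlated at 0.267, 0.255 and −0.296. With 3 libraries per group, these values cannot decide whether the mice were paired. The median over the tested collagens (−0.78) was −0.84 to −0.56 with 1 library left out, and −0.56 without DSS 3. The causes were not tested.

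Per coding length, the basement membrane share was 15.7% in DSS and 14.9% in DSS+BV (18.1% and 17.2% in counts), the FACIT share 3.33% and 4.44% (4.49% and 6.02%), and the share of the other collagens in DSS+BV 35.6% (31.1%). Sign changed for low or near-zero members only, among the 36 tested. *Col11a2* ran from −0.27 to 0.11 with 1 library left out, and was at 0.06, 0.11 and 0.02 without DSS 1, DSS 3 and DSS+BV 3. *Col20a1* was at 0.0021 with DESeq2, 0.0063 with every gene with a count, 0.018 with the replicate block, −0.21 to 0.24 with 1 library left out (0.24 without DSS 2, 0.08 without DSS+BV 1) and 0.34 without both DSS 2 and DSS+BV 1. *Col8a2* ran from −0.44 to 0.050, the latter without DSS+BV 3, and the difference in the log2 ratio of *Col4a1* to *Col1a1* from −0.23 to 0.15, the latter without DSS 3. With 3 mice per group and a coefficient of variation of 32.1%, members near 1 CPM had standard errors up to 0.73, and differences of their size were not detectable.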
